A study of Macaca fascicularis with 20 samples.

Results

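EOMES, HOPX, RUNX3, PRDM1, GATA3 and KLF3 are 6 regulators of transcription in effector lymphocytes, and their levels are described here for natural killer (NK) and B cells sorted from cynomolgus macaque spleen. They were chosen by name, as the RefSeq symbols to which the transcript accessions of 12 array probes map, and are 6 of the 12530 genes so matched (gene IDs 102144498, 101865755, 102140435, 102127621, 102135253 and 102136081). EOMES had 2 probes, PRDM1 had 4, GATA3 had 3, and HOPX, RUNX3 and KLF3 had 1 each. The 6 were chosen with earlier results of these data known, so shares of all genes set beside them are descriptive only.

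The study sorted NK cells by surface CD27, a costimulatory receptor, and CD11b, the alpha chain of an adhesion integrin, and profiled each sort without stimulation on a one-colour Agilent array. NK cells were alive, CD45+, negative for CD3, CD14, CD20 and HLA-DR, and positive for NKG2A and CD8a; B cells were CD20+ and HLA-DR+ and negative for NKG2A and CD8a. All cells had been frozen and thawed. From each sort 50 ng of total RNA was amplified and 400 ng of the product labelled.

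The NK groups were CD27lo CD11blo (double-low, 4 arrays), CD27+ CD11blo (CD27 single positive, 4 arrays), CD27+ CD11b+ (double-positive, 5 arrays) and CD27lo CD11b+ (CD11b single positive, 5 arrays), and B cells gave 2 arrays. Replicate 1 of every NK subset is labelled as a male of 4 years from Cambodia, and replicate 2 as a male of unknown age from Vietnam. Replicate 3 is a male from Vietnam whose labelled age is 9 years for double-low cells, 10 for CD27 single positives, 11 for CD11b single positives and 12 for double positives. Replicate 4 of the CD11blo subsets and replicate 5 of the CD11b+ subsets are labelled as a female of 18 years from Singapore, and replicate 4 of the CD11b+ subsets as a male of 5 years from Singapore. Both B cell arrays are labelled as females from Singapore, of 5 and 18 years. Arrays with the same labels may come from 1 animal, so groups are not shown to be independent animals.

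In mouse and human, the T-box factor EOMES and its relative TBX21 direct the maturation of NK cells, and RUNX3, of the runt family, acts in NK cells and CD8 T cells. GATA3 is a zinc-finger factor of T cells and innate lymphoid cells that also has a part in NK maturation. HOPX is a small homeodomain protein that does not itself bind DNA, PRDM1 (Blimp-1) is a repressor of effector lymphocytes and plasma cells, and KLF3 is a Krüppel-like repressor. In mouse, CD27 and CD11b mark successive stages of NK maturation.

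Levels are log2 values of processed signal, less the 75th percentile of the same array, so that 0 is that percentile and 1 unit is a doubling. The level of one probe cannot be set against that of another. A difference is NK minus B cells, CD11b+ minus CD11blo or CD27+ minus CD27lo, and for a pair of subsets, one set against another, it is the level in the one minus that in the other. It is given ± its limma standard error (SE), and a difference was called where its p, adjusted by the Benjamini-Hochberg method over all genes, was under 0.05. In sorted bulk RNA, fewer cells of a type and less RNA per cell cannot be told apart.

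The arrays lay on 3 slides. Replicates 1 and 2 of all NK subsets were on the first. The second carried replicate 3 of all NK subsets, replicate 4 of the CD11blo subsets and the B cell arrays. Replicates 4 and 5 of the CD11b+ subsets were on the third. The 75th percentile of signal ranged from 180.0 to 1897 units, and was lowest on double-positive replicate 4 and double-low replicate 4 (199.6 units). Over 11 measured NK marker genes the mean level was 0.14 to 2.48 on NK arrays and -2.61 to -2.47 on B cell arrays, and 8 of the 11 were called higher in NK cells. Over 10 B cell markers it was -3.65 to -1.33 on NK arrays and 1.62 to 1.80 on B cell arrays, with 7 called lower in NK cells. NCAM1 was not well above background on any array of CD11b single positives or B cells. Over 9 T cell markers it was -1.87 to -0.05 on NK arrays and -3.02 to -2.76 on B cell arrays, 2 were called higher in NK cells, and TRAT1, ICOS and CAMK4 were not well above background on either B cell array. The part of other cells in the results below was not tested.

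**Figure D1:**
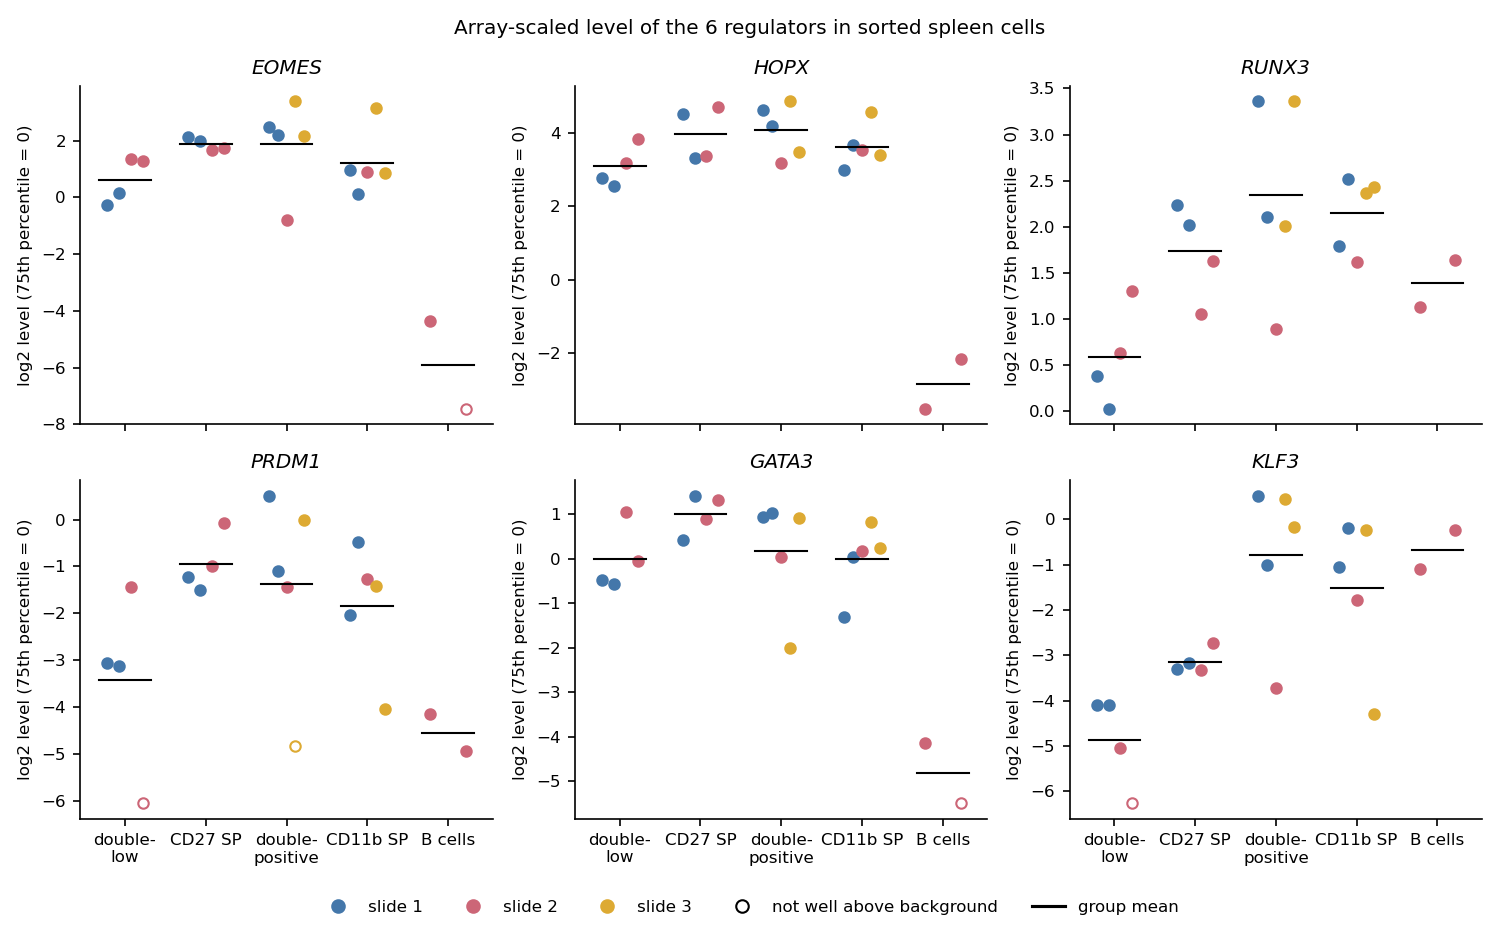
Level of each gene on all 20 arrays, as log2 signal above the 75th percentile of the array, by cell group; points are arrays, colours are slides, open points were not well above background and lines are group means. EOMES, HOPX and GATA3 lie higher on all 18 NK arrays than on both B cell arrays, while PRDM1, RUNX3 and KLF3 overlap with B cells. Each panel has its own vertical scale.

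NK cells were set against B cells to see which of these regulators mark the sorted NK lineage. EOMES, HOPX and GATA3 were called higher in NK cells, by log2 differences of 7.31 ± 0.84, 6.55 ± 0.50 and 5.11 ± 0.65, while PRDM1, RUNX3 and KLF3 were not called. Thus 3 of 6 were called, all higher, against 2.92% of the 12388 genes tested (1.72% higher and 1.2% lower). As the 6 were chosen with earlier results of these data known, this contrast with all genes is not a test. Both B cell arrays lay on 1 slide and there are only 2 of them, so the spread of B cells is thinly measured.

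EOMES, the T-box factor, stood at -0.25, 0.15, 1.34 and 1.28 in double-low cells and at 2.15, 1.98, 1.68 and 1.74 in CD27 single positives. It stood at 2.49, 2.21, -0.80, 3.39 and 2.17 in double positives and at 0.98, 0.11, 0.89, 3.16 and 0.87 in CD11b single positives, against -4.36 and -7.46 in B cells. Every NK array was higher than both B cell arrays, and B cell replicate 2 was not well above background. The difference was 7.31 ± 0.84 (18 NK and 2 B cell arrays; adjusted p = 3.01e-05). Its size rests on the B cell arrays: it was 8.86 without B cell replicate 1 and 5.77 without replicate 2, the 1 at background. CD27 single positives were the most even NK subset (1.89 ± 0.22, SD, n = 4), and double positives the most spread (1.89 ± 1.58, n = 5), since their replicate 3 was the lowest NK array. The order of means was CD27 single positives and double positives (both 1.89), CD11b single positives (1.20 ± 1.15, n = 5), double-low cells (0.63 ± 0.80, n = 4) and B cells (-5.91 ± 2.19, n = 2). No pair of NK subsets differed at the threshold. All 4 double-low arrays lay below all 4 CD27 single-positive arrays, as they did for KLF3. The share of all genes that separate in this pair is not given here.

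RUNX3, the runt-domain factor, stood at 0.38, 0.02, 0.63 and 1.30 in double-low cells and at 2.23, 2.02, 1.05 and 1.63 in CD27 single positives. It stood at 3.36, 2.10, 0.89, 2.01 and 3.36 in double positives and at 1.79, 2.52, 1.62, 2.37 and 2.43 in CD11b single positives, against 1.13 and 1.64 in B cells. B cells lay within the NK range. Across the NK subsets the difference from B cells was 0.31 ± 0.51 (95% interval -0.74 to 1.37; adjusted p = 0.692), and it was -0.07 with slide as a block and -0.18 within the second slide. The order of means was double positives (2.34 ± 1.04), CD11b single positives (2.15 ± 0.41), CD27 single positives (1.73 ± 0.52), B cells (1.39 ± 0.36) and double-low cells (0.58 ± 0.54), and no neighbours in it were called different.

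GATA3, the zinc-finger factor, stood at -0.47, -0.57, 1.06 and -0.06 in double-low cells and at 0.42, 1.42, 0.89 and 1.31 in CD27 single positives. It stood at 0.95, 1.02, 0.04, -2.0 and 0.92 in double positives and at -1.31, 0.05, 0.17, 0.82 and 0.25 in CD11b single positives, against -4.13 and -5.49 in B cells, of which replicate 2 was not well above background. All NK arrays were higher than both B cell arrays. The difference was 5.11 ± 0.65 (adjusted p = 7.74e-05), and it was 5.79 without B cell replicate 1 and 4.43 without replicate 2. The lowest NK array was double-positive replicate 4, which also had the least signal. CD27 single positives had the highest mean (1.01 ± 0.46), then double positives (0.19 ± 1.29), CD11b single positives (0.00 ± 0.79) and double-low cells (-0.01 ± 0.74), with no pair called.

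HOPX, the homeodomain cofactor, stood at 2.79, 2.55, 3.18 and 3.85 in double-low cells and at 4.52, 3.33, 3.39 and 4.73 in CD27 single positives. It stood at 4.64, 4.21, 3.20, 4.87 and 3.50 in double positives and at 2.99, 3.67, 3.55, 4.57 and 3.40 in CD11b single positives, against -3.53 and -2.18 in B cells. The groups did not overlap, and its p was the lowest of all genes tested (6.55 ± 0.50; adjusted p = 2.11e-07). It was 5.88 without B cell replicate 1 and 7.23 without replicate 2. Means ran from double positives (4.08 ± 0.72) through CD27 single positives (3.99 ± 0.74) and CD11b single positives (3.64 ± 0.58) to double-low cells (3.09 ± 0.57), and no pair of NK subsets was called different.

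PRDM1, the repressor Blimp-1, stood at -3.06, -3.13, -1.44 and -6.05 in double-low cells and at -1.22, -1.51, -0.99 and -0.08 in CD27 single positives. It stood at 0.51, -1.10, -1.43, -4.84 and -0.02 in double positives and at -2.03, -0.48, -1.26, -1.42 and -4.04 in CD11b single positives, against -4.15 and -4.94 in B cells. Of the 18 NK arrays 16 were higher than both B cell arrays. The remaining arrays, replicate 4 of double-low cells and of double positives, were not well above background and are the dimmest of the study. The difference of 2.65 ± 1.08 was not called (adjusted p = 0.163), but it was called without those 2 dimmest arrays (3.09 ± 0.71; adjusted p = 0.0216). CD27 single positives had the highest mean (-0.95 ± 0.62), then double positives (-1.38 ± 2.09), CD11b single positives (-1.85 ± 1.34), double-low cells (-3.42 ± 1.92) and B cells (-4.55 ± 0.56), with no neighbours called different.

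KLF3, the Krüppel-like repressor, stood at -4.10, -4.09, -5.04 and -6.26 in double-low cells and at -3.31, -3.18, -3.32 and -2.74 in CD27 single positives. It stood at 0.52, -1.01, -3.73, 0.45 and -0.18 in double positives and at -1.05, -0.20, -1.79, -0.23 and -4.29 in CD11b single positives, against -1.10 and -0.24 in B cells. All CD11blo arrays were lower than both B cell arrays, and double-low replicate 4 was not well above background. The CD11b+ arrays stood at -1.79 or more, apart from double-positive replicate 3 and CD11b single-positive replicate 5. Over all NK subsets the difference from B cells was -1.91 ± 0.94 and was not called (adjusted p = 0.23). On the second slide alone it was -2.88, where replicate 3 was the only array of each CD11b+ subset, so only its size is given. From low to high the means were double-low cells (-4.88 ± 1.03), CD27 single positives (-3.14 ± 0.27), CD11b single positives (-1.51 ± 1.68), double positives (-0.79 ± 1.76) and B cells (-0.67 ± 0.60), again with no neighbours called different.

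Each NK subset was next set against B cells. Of 24 such tests 13 were called. EOMES, HOPX and GATA3 were called higher in every subset, against backgrounds of 9.11% of all genes (7.52% higher, 1.58% lower) for double-low cells and 1.29% (0.533% higher, 0.759% lower) for CD27 single positives. For double positives the background was 1.57% (0.613% higher, 0.953% lower), and for CD11b single positives 1.92% (1.1% higher, 0.823% lower). EOMES differed by 6.54 ± 0.98, 7.80 ± 0.98, 7.80 ± 0.94 and 7.11 ± 0.94 in that order of subsets. HOPX differed by 5.94 ± 0.58, 6.85 ± 0.58, 6.94 ± 0.56 and 6.49 ± 0.56. GATA3 differed by 4.80 ± 0.76, 5.82 ± 0.76, 5.00 ± 0.73 and 4.81 ± 0.73. These comparisons share the 2 B cell arrays.

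KLF3 was the remaining call, lower in double-low cells by a log2 difference of -4.21 ± 1.09 (adjusted p = 0.0307). The call was lost without B cell replicate 1 (-4.63; adjusted p = 0.202) or 2 (-3.78; 0.24), without double-low replicate 3 (-4.15; 0.0502) or 4 (-3.74; 0.0647), without the 2 dimmest arrays (-3.74; 0.0518) and with normexp background correction (-2.51; 0.0576). In CD27 single positives KLF3 differed by -2.47 ± 1.09 (adjusted p = 0.399), in double positives by -0.12 ± 1.05 and in CD11b single positives by -0.84 ± 1.05. Without B cell replicate 2, the GATA3 difference lost its call in double-low cells (adjusted p = 0.103) and CD11b single positives (0.0744), as did EOMES in double-low cells (0.0986). On the second slide alone, which holds both B cell arrays, EOMES was not called in any subset (adjusted p = 0.05 to 0.147). HOPX was not called there in double positives (0.0632) or CD11b single positives (0.115), nor was GATA3 (0.0728 and 0.136).

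**Figure D2:**
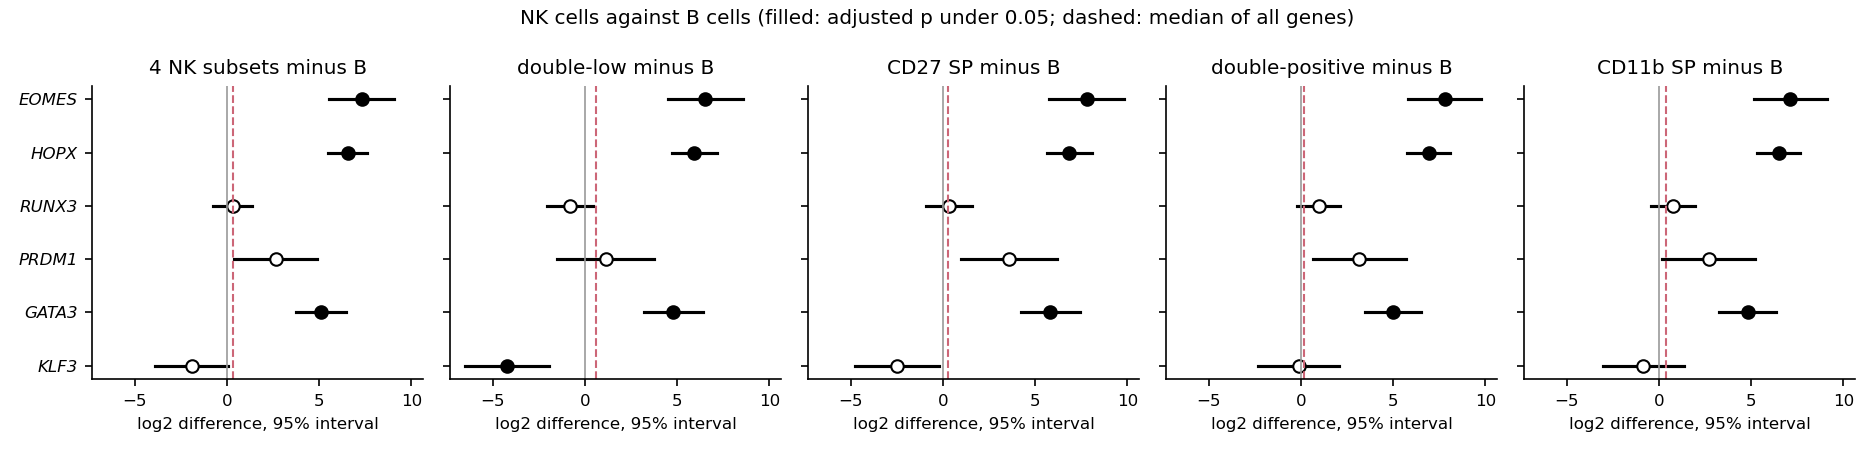
Log2 difference of each gene between NK cells and B cells with its 95% interval, over the 4 NK subsets and for each; filled points have an adjusted p under 0.05 and the dashed line is the median of all genes. EOMES, HOPX and GATA3 are called in all 5 panels, and KLF3 in double-low cells only.

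The 2 CD11b+ subsets were set against the 2 CD11blo subsets to follow the regulators along the CD11b axis. None of the 6 was called, where 2 of 12192 genes were (0.0164%), while 615 genes, KLF3 and RUNX3 among them, had an unadjusted p under 0.05. KLF3 had the largest difference of the 6, 2.85 ± 0.61 (unadjusted p = 0.000185, rank 7 of all genes; adjusted p = 0.292). Of the 10 CD11b+ arrays 8 lay above every CD11blo array. The others were double-positive replicate 3 and CD11b single-positive replicate 5, and without the first KLF3 was called (3.22; adjusted p = 0.035), as without the second (3.20; adjusted p = 0.0494). With slide as a block the difference was 2.57 ± 0.67 (adjusted p = 1), and without the 2 dimmest arrays 2.47 ± 0.63 (adjusted p = 0.806). It was 3.23 among arrays of the first slide and 1.58 among those of the second.

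RUNX3 differed by 1.09 ± 0.33 (unadjusted p = 0.00388; adjusted p = 0.903). Of the 10 CD11b+ arrays 5 lay above every CD11blo array. Within the first slide its difference was 1.28 and within the second 0.10. The other differences were 0.57 ± 0.70 for PRDM1, 0.32 ± 0.31 for HOPX, 0.29 ± 0.49 for EOMES and -0.41 ± 0.41 for GATA3. The EOMES difference had the opposite sign with slide as a block (-0.32). The median of all genes was -0.13, and 36.7% of genes had a positive difference.

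KLF3 and RUNX3 moved together over the 18 NK arrays (Pearson r = 0.69, Spearman rho = 0.68), as did EOMES and HOPX (r = 0.76, rho = 0.70). PRDM1 and GATA3 had r = 0.62, and GATA3 and KLF3 had r = -0.10. Without the 2 dimmest arrays KLF3 and RUNX3 had r = 0.76 and EOMES and HOPX 0.71, while EOMES and GATA3 had 0.65, against 0.19 over all 18, and HOPX and PRDM1 0.63, against 0.16. The arrays share slides and animals, so these values describe the arrays only. RUNX3 was lower where the mean of several other marker lists was higher. Its r was -0.72 with monocyte and macrophage markers, -0.72 with other innate lymphoid markers, -0.71 with neutrophil and mast cell markers, -0.61 with erythroid, -0.57 with dendritic cell and -0.56 with stromal markers, and their part in its result was not tested. The mean of the 11 monocyte and macrophage markers was -2.12 to -0.58 on CD11b+ arrays and -1.37 to -0.41 on CD11blo arrays, and none of the 11 markers was called.

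**Figure D3:**
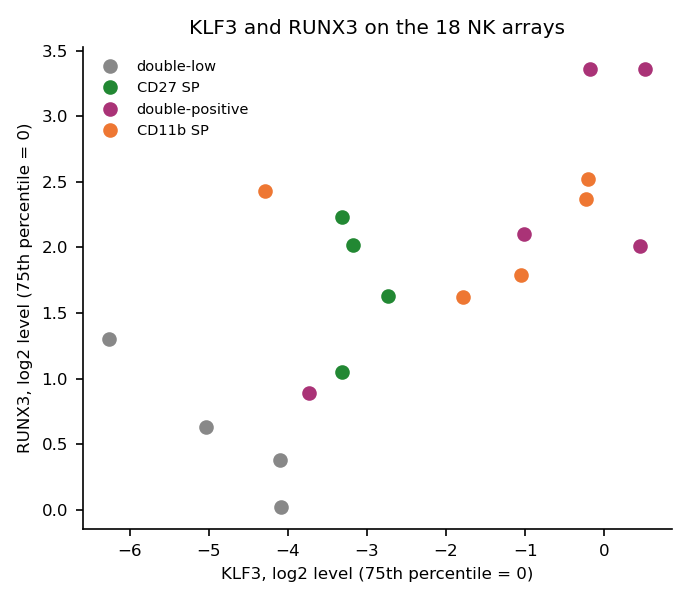
RUNX3 against KLF3 on the 18 NK arrays, both as log2 signal above the 75th percentile of the array, coloured by subset. Double-low arrays lie at -6.26 to -4.09 for KLF3, and 4 of 5 arrays of each CD11b+ subset at -1.79 or more.

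The 2 CD27+ subsets were likewise set against the 2 CD27lo subsets. All 6 differences were positive where 33.9% of all genes were, and the members' median was 0.82 against -0.37 for all genes. None was called, as no gene was (0% of 12192 by limma; 2695 at an unadjusted p under 0.05). PRDM1 differed by 1.47 ± 0.70 (adjusted p = 0.226), KLF3 by 1.23 ± 0.61 (0.235), EOMES by 0.97 ± 0.49 (0.237), RUNX3 by 0.67 ± 0.33 (0.23), HOPX by 0.67 ± 0.31 (0.221) and GATA3 by 0.60 ± 0.41 (0.333). HOPX had an unadjusted p of 0.0422. Within the second slide EOMES (-0.64) and RUNX3 (-0.18) were negative, while within the first the values were 1.96 and 1.25. Array signal moved with PRDM1 (r = 0.84 over 18 NK arrays, 0.61 without the 2 dimmest) and with GATA3 (0.69 and 0.61). For EOMES r was -0.02 over 18 arrays but 0.56 without the 2 dimmest. It was -0.13 and 0.37 for HOPX, 0.18 and 0.29 for KLF3, and 0.14 and 0.23 for RUNX3. The part of array signal in these differences was not tested. Markers of other cells mostly had negative differences: 0 of 6 erythroid and platelet markers were positive (median -0.73), 0 of 6 dendritic cell (-0.64), 0 of 7 neutrophil and mast cell (-0.62) and 1 of 10 stromal markers (-0.75), and none was called. The mean of the stromal markers was -4.02 to -2.30 on CD27+ arrays and -3.13 to -1.66 on CD27lo arrays, and that of the erythroid and platelet markers -2.32 to -1.01 on CD27+ arrays and -2.02 to -0.39 on CD27lo arrays. EOMES had r = -0.71 with the stromal and HOPX r = -0.67 with the dendritic cell markers over the 18 NK arrays. The part of these cells in the CD27 differences was not tested.

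CD11b single positives against CD27 single positives showed no call among the 6 (0% of all genes; 641 with an unadjusted p under 0.05). KLF3 differed by 1.63 ± 0.87, RUNX3 by 0.41 ± 0.47, HOPX by -0.36 ± 0.44, EOMES by -0.68 ± 0.69, PRDM1 by -0.90 ± 0.99 and GATA3 by -1.01 ± 0.59, with adjusted p from 0.814 to 0.848. For GATA3, and for EOMES too, all 4 CD27 single-positive arrays were higher than 4 of the 5 CD11b single-positive arrays. For KLF3, 4 of the 5 CD11b single-positive arrays were higher than all 4 CD27 single-positive arrays. The share of all genes that separate this far is not given here.

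The remaining pairs of NK subsets called 0 members (0% of all genes in each pair). Double positives against double-low cells gave 6 positive differences of 6, where 33.7% of all genes were positive and 2556 had an unadjusted p under 0.05. KLF3 differed by 4.08 ± 0.87 (adjusted p = 0.128), with no overlap, and was called without double-positive replicate 3 (4.82; adjusted p = 0.0376). It was 3.80 with slide as a block (adjusted p = 0.381), 3.31 without the 2 dimmest arrays (0.252) and 1.92 within the second slide. Double-low replicate 4 was not well above background for KLF3. RUNX3 differed by 1.76 ± 0.47 (adjusted p = 0.154) and HOPX by 0.99 ± 0.44 (adjusted p = 0.222). CD11b single positives against double-low cells gave KLF3 a difference of 3.36 ± 0.87 and RUNX3 one of 1.56 ± 0.47 (both adjusted p = 0.944). All 5 CD11b single-positive arrays were higher in RUNX3, and 437 genes had an unadjusted p under 0.05. The share of all genes that separate without overlap in these pairs is not given here. Double-low cells against CD27 single positives gave 6 negative differences of 6, where 64.6% of all genes were positive. In this pair 1562 genes had an unadjusted p under 0.05. PRDM1 differed by -2.47 ± 1.05 and RUNX3 by -1.15 ± 0.49 (both adjusted p = 0.374). Without the 2 dimmest arrays PRDM1 was -1.59 and RUNX3 -1.39 (both adjusted p = 0.447). Double-low replicate 4, among those arrays, was not well above background for PRDM1. In the test of any difference among the 4 subsets KLF3 ranked 13 of 12192 genes (F = 8.72, unadjusted p = 0.000835) and RUNX3 137 (unadjusted p = 0.00698). Neither passed adjustment (both 0.561), 0% of genes did, and 1064 genes had an unadjusted p under 0.05.

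**Figure D4:**
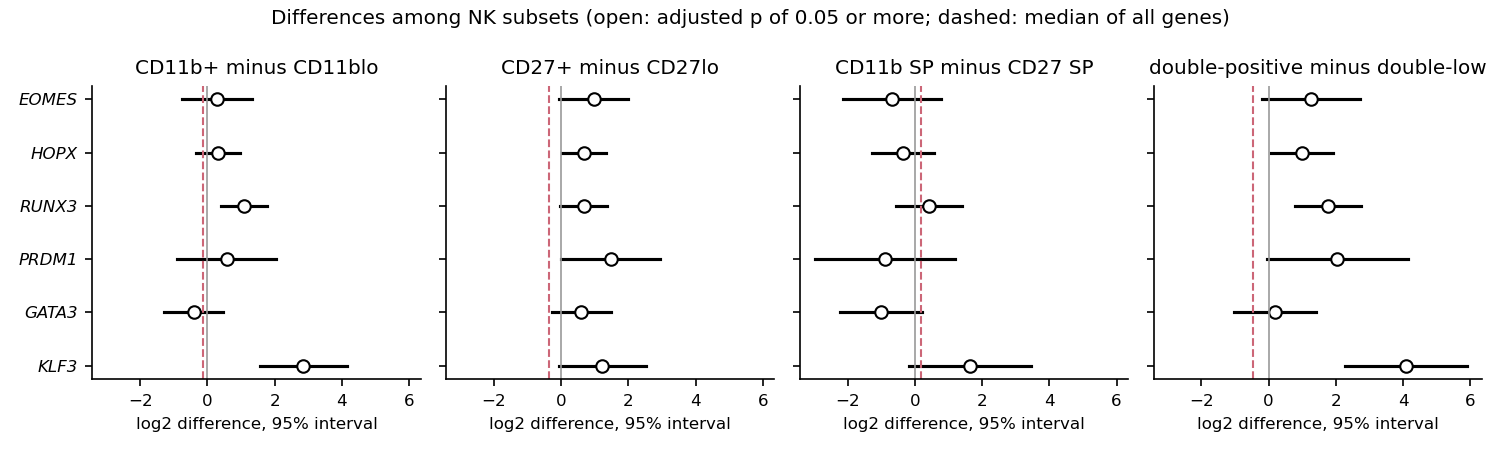
Log2 difference of each gene in 4 comparisons among NK subsets, with its 95% interval; open points have an adjusted p of 0.05 or more and the dashed line is the median of all genes. KLF3 has the largest difference of the 6 in the CD11b, CD11b against CD27 single positive and double-positive against double-low comparisons, and all 6 lie above 0 for CD27.

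Other genes of the same regulatory setting were counted in lists, also chosen with earlier results of these data known. Of 42 measured genes of the NK and T cell transcription factor network, 1 was called higher in NK than in B cells, ID2 (4.58 ± 0.56), an inhibitor of E proteins needed by NK cells, and 0 lower, where 1.72% of all genes were called higher and 1.2% lower. The median difference of the list was 0.25 and that of all genes 0.36. Of 25 relatives of the members by DNA-binding family, 0 were higher and 1 lower, the Krüppel-like KLF11 (-2.11 ± 0.53). TBX21, the T-box relative of EOMES and also a network gene, had 1.97 ± 0.60 (adjusted p = 0.0765), and RUNX1, the relative of RUNX3 and also a network gene, 0.06 ± 0.81. Of 13 B lineage factors, 6 were lower in NK cells (1.2% of all genes), among them the B cell coactivator POU2AF1 (-6.28 ± 0.69), BCL11A (-5.18 ± 0.65) and PAX5 (-4.71 ± 0.52). BACH2, a repressor that restrains PRDM1 in mouse B cells, was also called lower, but it was not well above background on any CD11b single-positive array or on most other NK arrays, so no size is given.

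Of 19 measured genes known in mouse or human lymphocytes as targets of these factors, 9 were higher and 1 was lower in NK cells (1.72% and 1.2% of all genes), with a list median of 2.33 where that of all genes was 0.36. KLRD1, GZMB, IL2RB, NKG7 and PRF1 are also among the NK markers above, so the counts are not independent. This list too was chosen with earlier results of these data known. Whether the members act on these genes here was not tested. KLRD1, which encodes CD94, was higher by 6.67 ± 0.57, and the granzymes GZMH by 6.46 ± 0.88, GZMA by 6.18 ± 1.40 and GZMK by 6.08 ± 0.73. Along the CD11b axis PRF1, which encodes the pore protein perforin, was the 1 target called (1.95 ± 0.31; adjusted p = 0.0307). With slide as a block, or donors guessed from labels as a block, 0 genes were called along CD11b, so this call was lost. It averaged 3.36 ± 0.51 in double positives and 3.54 ± 0.78 in CD11b single positives, against 0.97 ± 0.40 in double-low cells and 2.03 ± 0.78 in CD27 single positives.

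No gene of the network or the relatives was called between NK subsets. Along CD11b the lowest p in the network belonged to NOTCH1 (1.94 ± 0.70) and FOXP1 (1.02 ± 0.37), with adjusted p of 0.944, and 20 of 42 were positive. Among the relatives it belonged to TBX21 (0.90 ± 0.39) and RUNX1 (-1.05 ± 0.53), with 9 of 25 positive. Along CD27, 26 of 42 network genes were positive (median 0.53), led by SMAD7, an inhibitor of TGF-beta signalling (2.59 ± 0.71), and NOTCH1 (2.09 ± 0.70). Of the relatives 9 of 25 were positive (median -0.43), with KLF10 at 1.66 ± 0.47 and TBX5 at -1.86 ± 0.69. Between the single positives TOX (-2.41 ± 0.72) and ID3 (-1.97 ± 0.83) had the lowest p of the network.

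Probes of 1 gene agreed closely on NK arrays. For PRDM1, B cell replicate 2 was well above background on the probe used (-4.94) but not on the other probes (-5.29, -5.74 and -4.94). Over the 18 NK arrays the lowest correlation between probes was 0.952 for EOMES, 0.986 for PRDM1 and 0.979 for GATA3, and the largest gap between them was 0.97, 1.0 and 0.74 log2 units. The genes most like each member over the 18 NK arrays, by Pearson r, were CD300LG, GNAS and GPD2 for EOMES (0.84 each) and SRP9 (0.88), PRKAR1A (0.85) and MYL12A (0.83) for HOPX. They were TSPAN14 (0.86), DGKZ (0.84) and OAZ1 (0.82) for RUNX3, and LOC102135658 (0.92), RNF141 (0.92) and CPSF7 (0.91) for PRDM1. For GATA3 they included IGF2R (0.90) and EZR (0.87), and for KLF3 they were RALB (0.87), INPP5F (0.84) and UCKL1 (0.82). These values describe the arrays, which share slides and differ in signal, and were chosen as the highest of 12171 genes.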

How the data were processed

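Per the submitters' processing notes, the tools were Agilent Feature Extraction (10.7.1.1) and, with no version given, Partek. The processed signal is intensity after background subtraction, per the file headers. The authors deposited a matrix of log2 values, used here as an alternative only. Outlier and control spots were left out. Accessions were matched to the RefSeq table without version, and 34.8% of probes matched a gene. Genome coordinates and probe sequences are not given here. Testing required signal well above background on 4 or more of 18 NK arrays (B cell comparisons: 2 or more of 20), and the probe of highest mean stood for its gene. Log2 signal minus the array's 75th percentile went into limma 3.58.1 (R 4.3.3; moderated variance with trend and robust options), 18 NK or all 20 arrays sharing 1 spread. The rule named the 6 members, their 3 most similar genes each, and up to 4 list genes in each direction; some genes it took are not reported here. The normexp alternative (offset 50) used median spot signal, as mean signal was not in the files used here. The members and lists were chosen with earlier results of these data known. The fits were tested on simulated data.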

Additional observations from a re-analysis of the deposited data

Results flagged for a closer look

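EOMES in CD11b single positives was 3.16 on replicate 4, and 0.11 to 0.98 on the other arrays of the group. Its gap to the nearest other array was 0.715 of the group's range, just over Dixon's critical value of 0.71. It was the 1 value flagged among 24 groups of 4 or 5 arrays tested, and chance flags about 1 in 20 groups.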

How the results depend on the processing

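EOMES, HOPX and GATA3 were called higher in NK than B cells in all 33 alternatives with a test, with adjusted p of at most 0.0362, 0.0168 and 0.0237. With array weights 5711 genes were called, 5 members among them, against 3: KLF3 (-1.75; adjusted p = 0.00481) and PRDM1 (2.99; 0.000221) were added. PRDM1 was also called with normexp (2.14; 0.0319) and without the 2 dimmest arrays (3.09; 0.0216). KLF3 was -2.88 on the second slide alone, where each CD11b+ subset had only its replicate 3, so only its size is given. RUNX3 was -0.07 with slide as a block and -0.18 on or within the second slide. Across each subset against B cells, 5 of 24 tests were called on the second slide alone, against 13, and 9 to 14 when 1 array was left out. For CD11b, 1 member, KLF3, was among 5 genes called with array weights (2.78; 0.0191), and its value was 2.62 to 3.22 with 1 array left out. EOMES was -0.32 with slide as a block, -0.14 with donors (guessed by labelled sex, origin, age) as a block and -1.47 within slide 2, where HOPX was -0.41 and RUNX3 0.10. For CD27, array weights called 4085 genes, 4 members among them: EOMES (1.36; 0.0142), GATA3 (0.98; 0.0253), HOPX (0.75; 0.0296) and RUNX3 (0.93; 0.0193). Within slide 2 EOMES was -0.64 and RUNX3 -0.18, and within slide 1 GATA3 was 1.52. Between the single positives PRDM1 was 0.11 within slide 1. Between double positives and CD27 single positives KLF3 was 2.35 ± 0.87, not called, but -0.70 within slide 2, where double positives had only replicate 3. Within slide 2 HOPX was -0.31 and RUNX3 -0.08 between double positives and double-low cells. Of the other pairs array weights called 5 tests, and leaving out double-positive replicate 3 called 1 (counts with 1 array left out were 0 to 1, for CD11b too). The test of any difference called 2 members with array weights. Calls over all genes under array weights are not given here for these pairs or this test, so these counts have no background. Why these values changed was not tested. Over all genes NK against B cells gave 362 calls, but 600 with slide as a block, 5711 with array weights, 1924 on the second slide, 1824 over every probe, 719 without CD11b single-positive replicate 4 and 64 without either B cell array. CD11b gave 2 calls, against 0 to 14, with 0 where slide or donors were a block. CD27 gave 0, against 4085 with array weights. The single positives gave 0, against 4 with array weights. Replicate numbers were not used as pairs: replicates 1 to 3 share origin and sex across subsets but replicate 4 does not, 17 of 25 same-numbered pairs correlated over 0.1 (-0.30 to 0.42; median 0.22, against -0.07 for other pairs), and 12 of 18 NK arrays correlated best with their own number, a hint only. With the replicate block 0 members were called in the NK comparisons, as without it, and the CD11b count was 1. PRDM1 was well above background on 16 and KLF3 on 17 of 18 NK arrays.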
